A study of Homo sapiens with 54 samples.

Results

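Compound Kushen Injection (CKI) is a mixture drug made from medicinal plants, and N-methylcytisine (Nme) is one of the alkaloids in it. The comparison described here set 3 libraries of MDA-MB-231 cells given CKI from which Nme was removed, labelled N-Nme, against 3 libraries of untreated cells, 6 of the 54 libraries of the study. Members were taken from the labels alone, by treatment, time (48 h) and batch (batch 2). MDA-MB-231 is an established human cell line from a breast cancer, grown here in medium with fetal bovine serum. N-Nme was a fractionated and reconstituted mixture given at the equivalent of 2 mg/ml CKI. The untreated cells received no mixture, and the labels name no vehicle for them. Whole CKI at 2 mg/ml and 3 further mixtures lacking Mac, Omt or Tri (N-Mac, N-Omt and N-Tri, abbreviated as in the labels) had 3 libraries each in the same batch and at the same time. CKI and untreated cells of batch 1 at 48 h, 3 libraries each, share no library with the main comparison.

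N-methylcytisine, also called caulophylline, is a plant alkaloid related to cytisine and is known as a ligand of nicotinic acetylcholine receptors. These receptors are cation channels, assembled from several subunits, that open on binding acetylcholine, best known from nerve and muscle, and some subunits are also made by epithelial and cancer cells. Gene expression in a dividing cell line also reports on its cell cycle, on protein folding in the endoplasmic reticulum (ER), where misfolded proteins switch on chaperone genes through the unfolded protein response, and on cytokine genes driven by NF-κB. The lists of genes below are ordered by these roles.

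The libraries of batch 2 at 48 h held between 17673537 and 25453736 counts, those of N-Nme between 20656780 and 24603876 and those of untreated cells between 23373761 and 25453736. Levels are given as CPM, counts scaled to library totals that were adjusted by the TMM method, and are not divided by gene length, so that levels are compared between libraries and not between genes. CPM is a share of the library, and a change in the number of cells or in the RNA per cell cannot be told apart from it. Replicates of a group differed by more than sampling noise, with a chi-square per gene between 1.97 and 14.4, the highest for N-Nme replicates 1 and 3 and, at 13.1, for untreated replicates 2 and 3. Vimentin, CD44, AXL and CAV1, markers of this mesenchymal line, were at 1535, 627, 1082 and 763 CPM in untreated cells. Of 8 such markers 6 were lower and 2 higher with N-Nme (median log2 fold change -0.82), beside 35.4% and 35.9% of all genes tested. Their summed level was between 5142 and 5491 CPM in untreated and between 2778 and 3075 CPM in N-Nme libraries. Of 8 luminal and epithelial markers, CDH1 (E-cadherin) was at 0.973 CPM, and ESR1 and PGR had at most 7 and 2 counts in an untreated library. The 6 that could be tested were all lower with N-Nme, and their summed level was between 1445 and 1654 CPM in untreated and between 372 and 417 CPM in N-Nme libraries. Most of it came from the keratin genes KRT8, with 1013, 1038 and 916 CPM in untreated and 249, 216 and 229.6 CPM in N-Nme libraries, and KRT18. Of the blood cell markers, PTPRC, CD3E and ITGAM had at most 9 counts in any library of batch 2, while CD68, a lysosomal gene, was at 155 CPM in untreated cells and 186 CPM with N-Nme, and CD14 at 5.49 and 0.877 CPM. The summed level of 6 fibroblast markers was between 33.9 and 44.6 CPM in untreated and between 14.7 and 23.7 CPM in N-Nme libraries, with COL1A2 at 16.9, 22.3 and 13.8 CPM in the untreated and 3.63, 4.15 and 0.675 CPM in the N-Nme libraries. The part of these markers in the results was not tested.

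After 48 h with N-Nme, genes of DNA replication and mitosis were lower in MDA-MB-231 cells than without treatment, and genes of the unfolded protein response, cytokine genes and antioxidant genes were mostly higher. Of the 15115 genes tested, 10774 (71.3%) were differentially expressed (DE), 5422 of them higher (35.9%) and 5352 lower (35.4%). The threshold was an adjusted p-value of 0.05 in edgeR's quasi-likelihood test, fitted to the 18 libraries of batch 2 at 48 h, with Benjamini-Hochberg adjustment over all genes tested. Most of the differences were modest. At least a 2-fold difference was found in 2460 of the DE genes (16.3% of those tested), 1072 higher and 1388 lower, and the median log2 fold change of all genes tested was 0.01.

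The same 3 N-Nme libraries were set against each other group of batch 2, to ask what the removal of Nme did to the response to CKI and how far this differed from other removals. Against whole CKI, 10814 genes (71.5%) were DE, 5416 higher (35.8%) and 5398 lower (35.7%) with N-Nme. The number was 9605 (63.5%) against N-Omt, 4647 (30.7%) against N-Mac and 3095 (20.5%) against N-Tri, and 1646 (10.9%), 232 (1.53%) and 59 (0.39%) genes differed by at least 2-fold as well. N-Nme was thus nearest to N-Tri by this count. The large distance to whole CKI was not limited to N-Nme, since N-Mac, N-Omt and N-Tri differed from CKI in 10485 (69.4%), 11538 (76.3%) and 10789 (71.4%) genes. The removals were made by fractionation and reconstitution, and no group of the batch is labelled as CKI reconstituted with all its compounds, so that the absence of Nme and the handling of the mixture cannot be told apart in the comparison with CKI. In the comparisons with the other removals, the missing compound differs and the handling is shared as far as the labels say.

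**Figure D1:**
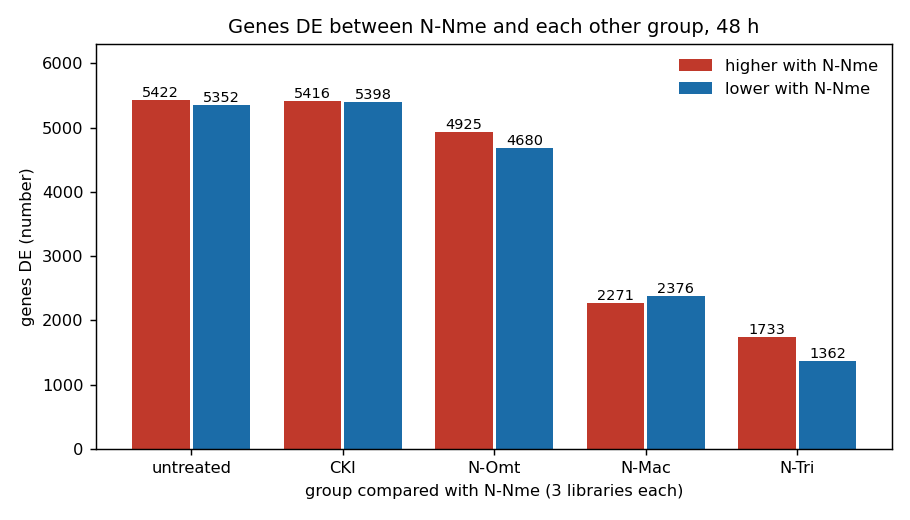
Number of genes DE (vertical axis) between the 3 N-Nme libraries and the 3 libraries of each other group of batch 2 at 48 h (horizontal axis), higher with N-Nme in red and lower in blue. The bars against untreated cells and CKI reach 5352 to 5422 genes, and those against N-Tri 1733 and 1362.

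Genes averaging 10 CPM or more whose libraries did not overlap were ranked, and the 12 with the largest rise against untreated cells included 5 genes of secreted signals of inflammation. IL24, a cytokine of the IL-10 family, was at 16.5, 11.2 and 23.7 CPM in the untreated libraries and at 442, 406 and 359 CPM in the N-Nme libraries. Every N-Nme library was far above every untreated one, with a log2 fold change of 4.55 (SE 0.12, adjusted p = 1.77e-24). IL1A, which encodes interleukin 1α, went from 3.29, 1.74 and 3.84 CPM to 60.7, 72.3 and 69.04 CPM, a log2 fold change of 4.50 (SE 0.11, adjusted p = 4.2e-25). Its relative IL1B, interleukin 1β, rose by 3.60 on the log2 scale, from 2.92, 2.76 and 3.37 CPM to 37.5, 41.6 and 31.5 CPM. Both interleukins stayed under 4 CPM in every untreated library, and no N-Nme library came near that level. CXCL8, the neutrophil attractant interleukin 8, was at 86.8, 69.7 and 116 CPM in untreated cells and at 794, 876 and 858 CPM with N-Nme, a log2 fold change of 3.21 (SE 0.10, adjusted p = 5.51e-23). TNFSF15, a cytokine of the tumour necrosis factor family, rose by 3.35 on the log2 scale.

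The other 7 of these genes had different roles. AKR1C1, an aldo-keto reductase with near-identical relatives among which reads may be split, had the largest rise, from 1.27, 1.56 and 1.90 CPM to 44.2, 43.1 and 38.5 CPM, a log2 fold change of 4.73 (SE 0.10, adjusted p = 1.43e-26). MMP1, the interstitial collagenase, went from 24.4, 20.3 and 28.2 CPM to 438, 435 and 411 CPM, a log2 fold change of 4.14 (SE 0.07, adjusted p = 3.47e-29). PTGS2, the inducible cyclooxygenase of prostaglandin synthesis, rose from 4.77, 3.83 and 5.70 CPM to 50.7, 56.02 and 51.4 CPM. The long noncoding RNA LUCAT1 rose by 3.45, SUN3 by 3.04, the proton pump subunit gene ATP6V0D2 by 3.01 and the tight junction gene CLDN1 by 2.52 on the log2 scale.

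Of the 12 genes with the largest fall, 3 are known from cell division and the copying of chromatin. UHRF1, which carries DNA methylation through replication, went from 152, 162 and 129 CPM in untreated libraries to 11.7, 11.3 and 13.4 CPM with N-Nme, a log2 fold change of -3.60 (SE 0.083, adjusted p = 5.13e-26). KIF20A, a kinesin of cytokinesis, went from 98.1, 107 and 85.01 CPM to 8.69, 9.58 and 7.11 CPM, and PLK1, a kinase of mitosis, from 116, 116 and 108 CPM to 12.6, 11.7 and 11.8 CPM. In all 3 genes the untreated and N-Nme libraries were far apart. The retinoid-induced genes RARRES3 and RARRES2 changed by -3.63 and -3.15 on the log2 scale, and the untreated libraries of RARRES3 ranged widely, at 76.96, 111 and 54.2 CPM. IGFBP4, a secreted binder of insulin-like growth factors, went from 1286, 1567 and 1016 CPM to 141, 132 and 134 CPM, a log2 fold change of -3.25 (SE 0.086, adjusted p = 1.06e-24). The remaining 6, STMN3, FAM111B, RCSD1, PDE7B, VIPR1 and SERTAD4, had log2 fold changes between -3.53 and -3.17.

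**Figure D2:**
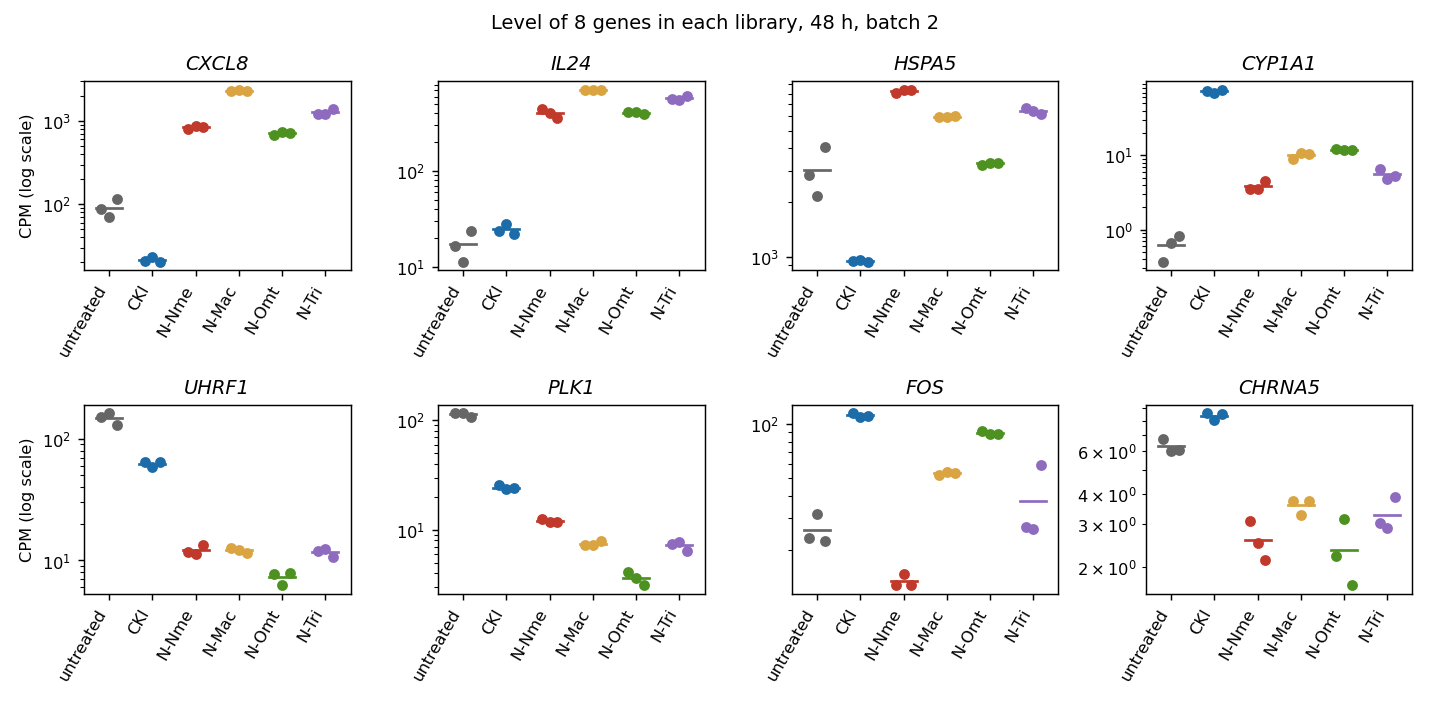
Level of 8 genes in every library of batch 2 at 48 h (points; CPM on a log axis) with the group mean (line), for untreated cells, CKI, N-Nme, N-Mac, N-Omt and N-Tri. In CXCL8 and IL24 the 3 N-Nme libraries lie above the untreated and the CKI libraries, in UHRF1 and PLK1 below both, and in FOS below those of every other group.

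Genes of cell division were lower with N-Nme than in untreated cells throughout. All 24 genes of the list of DNA replication and nucleotide supply were DE and lower, with a median log2 fold change of -1.69 and a range from -2.61 for TYMS, thymidylate synthase, to -0.59 for CDC6, which loads the replicative helicase. The helicase subunit gene MCM5 went from 95.6, 97.7 and 78.4 CPM to 20.3, 18.5 and 22.3 CPM, the DNA ligase gene LIG1 changed by -2.32 and the thymidine kinase gene TK1 by -2.18 on the log2 scale. All 23 genes of the mitosis and cytokinesis list were likewise lower, with a median of -1.96 and a range from -3.52 for KIF20A to -0.87 for ECT2. Among them BIRC5, survivin of the chromosomal passenger complex, changed by -2.85 and CDC20, the activator of the anaphase-promoting complex, by -2.81. Of 14 tested genes of the G1 phase, 10 were lower and 2 higher, where 35.4% of all genes tested were lower and 35.9% higher. CCNE2 (cyclin E2) and E2F1 changed by -2.77 and -1.76, CCND1 (cyclin D1) went from 749, 777 and 661 CPM to 239, 233 and 248 CPM, and the CDK inhibitor gene CDKN1A (p21) and CCND2 (cyclin D2) rose by 1.24 and 1.14.

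The same genes were also lower with N-Nme than with whole CKI. Against CKI all 24 replication genes (median -1.22) and all 23 mitosis genes (median -0.66) were DE and lower, where 35.7% of all genes tested were. CKI itself had 23 of the 24 replication genes and all 23 mitosis genes lower than untreated cells (34.2% of all genes), a comparison that shares its untreated libraries with that of N-Nme. Within the G1 list CCND3 (cyclin D3) and E2F1 were the furthest below CKI, CCND3 with a log2 fold change of -2.15. E2F1 was at 113 ± 7.70 CPM (SD, n = 3) in untreated cells, 146 ± 0.942 CPM (SD, n = 3) with CKI and 33.4 ± 2.37 CPM (SD, n = 3) with N-Nme, a log2 fold change against CKI of -2.13 (adjusted p = 4.46e-24). With N-Mac, N-Omt and N-Tri it was at 45.9, 41.8 and 35.4 CPM, below CKI as well, and it was not DE between N-Nme and N-Tri (adjusted p = 0.375).

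Against the other 3 removals the direction of the mitosis genes was the opposite, and they were higher with N-Nme. All 23 were higher with N-Nme than the mean of N-Mac, N-Omt and N-Tri, with a median log2 fold change of 0.90, where 44.2% of all genes tested were DE and 23.6% were DE and higher. Of the 23, 20 were higher than in N-Mac (15% of all genes), 23 than in N-Omt (32.6%) and 19 than in N-Tri (11.5%), and 18 were higher than in each of the 3, where 3.17% of all genes tested were. PLK1 was at 12.04 ± 0.486 CPM (SD, n = 3) with N-Nme, 7.49 ± 0.399 CPM (SD, n = 3) with N-Mac, 3.63 ± 0.515 CPM (SD, n = 3) with N-Omt and 7.19 ± 0.691 CPM (SD, n = 3) with N-Tri. Its log2 fold change against the 3 was 1.05 (SE 0.073, adjusted p = 8.23e-13), so that N-Nme lay between CKI, at 24.3 CPM, and the other removals. The 6 genes furthest above the other removals by the naming rule (a mean of at least 5 CPM, no overlap of libraries) were CIT, SHCBP1, KIF2C, NEK2, MKI67 and BRCA1, of which CIT, KIF2C and NEK2 act in mitosis or cytokinesis and MKI67 is the proliferation marker Ki-67. MKI67 was at 61.7, 63.2 and 59.5 CPM with N-Nme, 50.9 CPM with N-Mac, 6.04 CPM with N-Omt and 39.3 CPM with N-Tri, and at 331 CPM in untreated cells. N-Omt was the furthest from N-Nme in each of these 6 genes, as the values of BRCA1, a DNA repair gene, show, with 17.4 CPM for N-Nme, 1.89 CPM for N-Omt and 13.4 and 11.3 CPM for N-Mac and N-Tri. For replication genes the pattern was less even, with 15 of 24 DE and higher against the 3 removals together, 18 against N-Omt, 10 against N-Tri and only 1 against N-Mac, where 5 were lower.

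**Figure D3:**
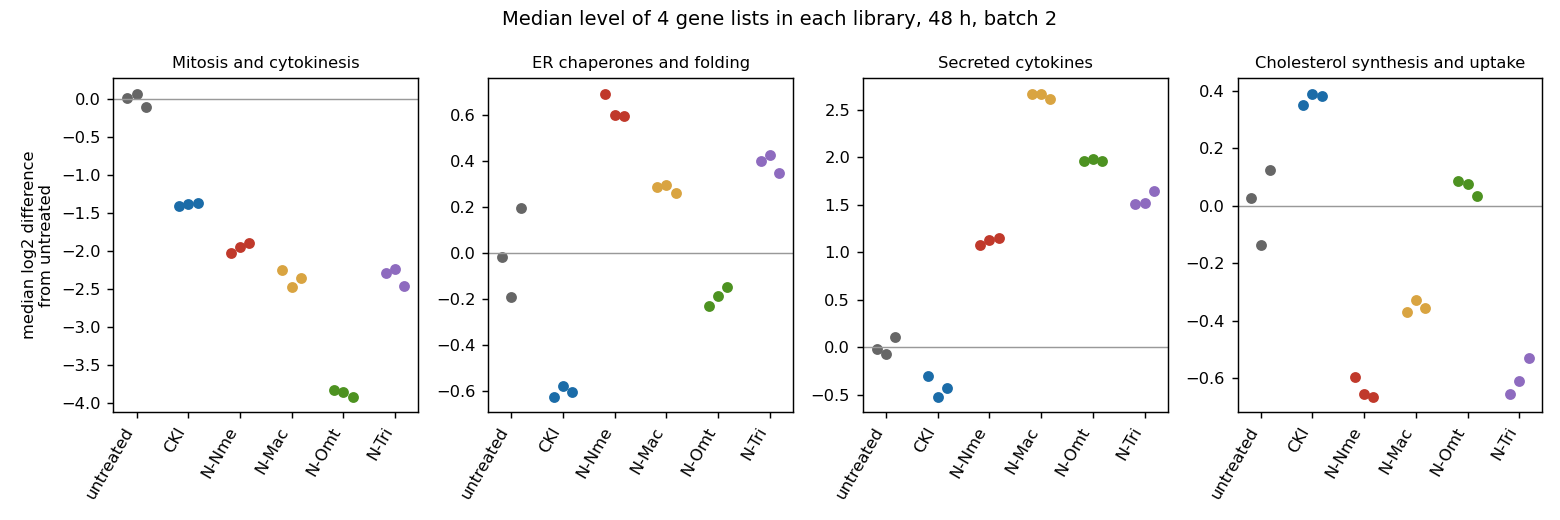
Median over list members of the log2 difference in CPM from the untreated mean (vertical axis; a value of 0.1 CPM was added before taking logs) in each library of batch 2 at 48 h, for the lists of mitosis, ER chaperones, secreted cytokines and cholesterol synthesis. For mitosis the N-Nme libraries lie between -2.02 and -1.90, below CKI and above each other removal, and for ER chaperones they lie between 0.59 and 0.69, the highest of the 6 groups.

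Chaperones of the ER showed a second contrast. Of the 19 genes on the list, 16 were higher with N-Nme than in untreated cells and 2 lower, with a median log2 fold change of 0.59. Over all genes tested, 35.9% were higher and 35.4% lower. HSPA5, the chaperone BiP, was at 2821, 2173 and 4064 CPM in untreated cells and at 8077, 8428 and 8369 CPM with N-Nme, a log2 fold change of 1.46 (SE 0.11, adjusted p = 1.91e-13). The untreated libraries varied among themselves in this gene, replicate 3 being the highest and replicate 2 the lowest, but none reached a N-Nme library. HERPUD1 and SEL1L, which act in the degradation of misfolded ER proteins, rose by 1.30 and 1.19 and the co-chaperone gene DNAJB9 by 1.15, while CRELD2 and CALR (calreticulin) were lower, by -0.91 and -0.29. Against whole CKI all 19 were DE and higher with N-Nme, with a median of 1.17, where 35.8% of all genes tested were. HSPA5 was at 949 ± 11.96 CPM (SD, n = 3) with CKI, below untreated cells, which put N-Nme 8.74-fold above it (log2 fold change 3.13, adjusted p = 4.94e-21). CKI had 16 of the 19 lower than untreated cells and none higher.

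N-Nme also had the highest ER chaperone levels among the removals. All 19 genes were higher than the mean of the other 3 removals (median 0.51), where 23.6% of all genes tested were. Against N-Mac (15% of all genes higher) and N-Omt (32.6%) 19 were higher and against N-Tri (11.5%) 14, and 14 were higher than in each, where 3.17% of all genes tested were. HSPA5 stood at 5965 ± 66.3 CPM (SD, n = 3) with N-Mac, 3289 ± 42.4 CPM (SD, n = 3) with N-Omt and 6436 ± 272 CPM (SD, n = 3) with N-Tri. HSP90B1, the ER member of the HSP90 family, had the largest difference of the list, with a log2 fold change of 0.96 (SE 0.043, adjusted p = 3.59e-17).

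The branch of the stress response run by ATF4 and CHOP was also higher with N-Nme than in untreated cells, with 16 of 20 genes DE and higher and 2 lower (median 0.78). Among all genes tested the shares were 35.9% and 35.4%. DDIT3, which encodes CHOP, went from 55.8, 36.2 and 81.98 CPM to 241, 207 and 173 CPM, and ATF3 from 17.8, 13.6 and 24.97 CPM to 78.7, 73.1 and 70.5 CPM. PPP1R15A (GADD34) and SESN2 rose by 1.45 and 1.26, whereas the amino acid transporter gene SLC7A5 changed by -1.18. Against CKI 16 were higher and 2 lower (35.8% and 35.7% of all genes), with a median of 1.30, DDIT3 being at 30.9 CPM with CKI. Unlike the chaperones, few of these genes separated N-Nme from the mean of the other removals. Of the 20, 2 were higher and 4 lower (median 0.05), where 23.6% and 20.6% of all genes tested were. Against N-Omt 4 were higher and 9 lower (32.6% and 31% of all genes). The numbers were 2 and 1 against N-Mac (15% and 15.7%) and 4 and 1 against N-Tri (11.5% and 9.01%). Of 14 heat shock chaperones of the cytosol 6 were higher and 5 lower than in untreated cells (median -0.03), shares near those of all genes. HSPB1 (HSP27) changed by -1.51 and BAG3 by -0.62, and HSPA1A and HSPA1B, near-identical copies of HSP70 that may share reads, by 0.61 and 0.57.

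**Figure D4:**
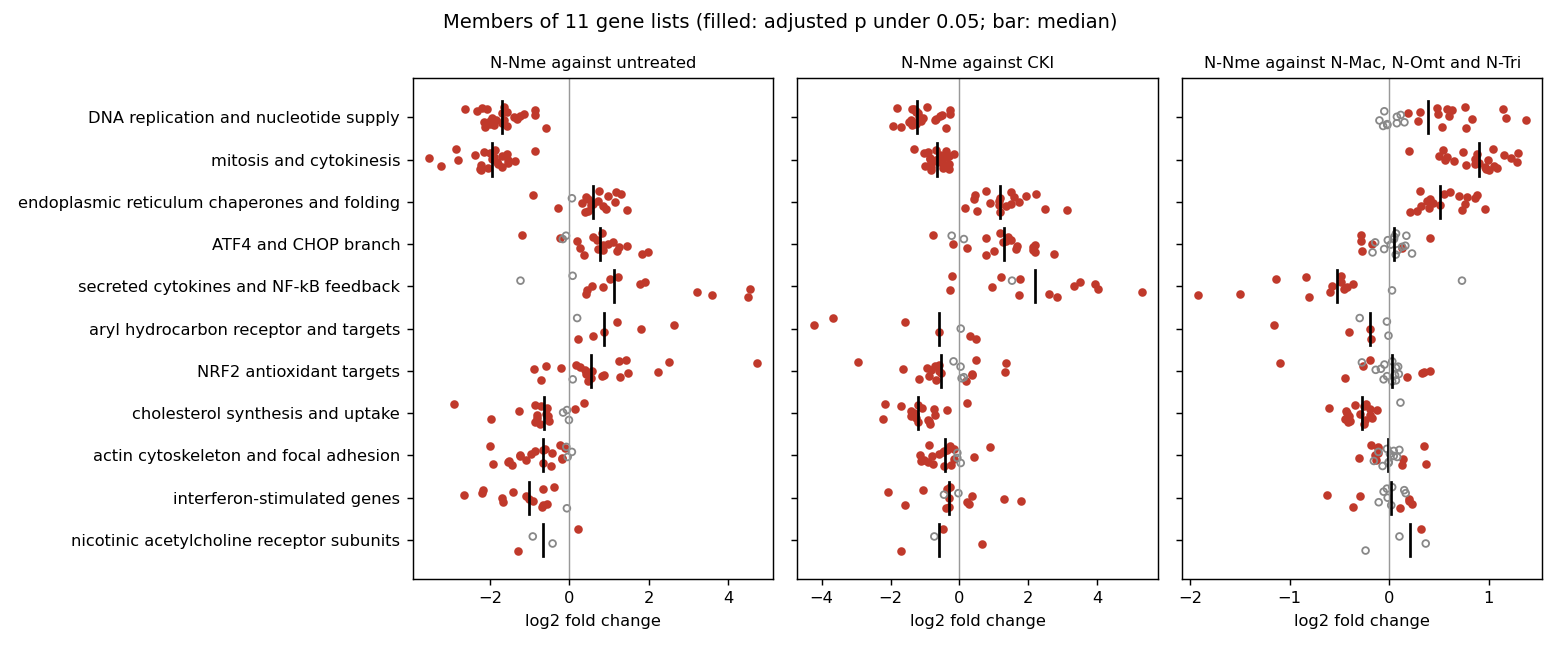
Log2 fold change (horizontal axis) of every tested member of 11 gene lists, for N-Nme against untreated cells, against CKI and against the mean of N-Mac, N-Omt and N-Tri. Filled points had an adjusted p-value under 0.05 and bars mark the medians. Mitosis genes lie left of 0 in the first and second panels and right of 0 in the third, and secreted cytokines mostly the reverse.

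Secreted cytokines and feedback inhibitors of NF-κB were higher with N-Nme than without treatment in 12 of 14 genes and lower in none (median 1.13). Over all genes tested, 35.9% were higher and 35.4% lower. The chemokine genes CXCL2 and CXCL3, close relatives of CXCL1 among which reads may be split, rose by 1.77 and 1.90, and CXCL1 by 0.57. IL6, the acute phase cytokine, rose only slightly, from 27.7, 27.01 and 29.5 CPM to 39.1, 39.1 and 34.6 CPM. TNFAIP3, the NF-κB inhibitor A20, rose by 1.23, and the 2 genes not DE were CCL5, with a log2 fold change of -1.23 at low counts, and NFKBIA, with 0.08. Against whole CKI the difference was larger, with 11 of 14 higher and 2 lower (35.8% and 35.7% of all genes) and a median of 2.18. CXCL8 was at 21.5 ± 1.55 CPM (SD, n = 3) with CKI, and its log2 fold change of 5.29 (SE 0.11, adjusted p = 2.28e-26) was the highest of all genes that passed the naming rule for this comparison. PTGS2, the keratin gene KRT34, IL24, CXCL2 and LCN2 (lipocalin 2) followed, with 4.38, 4.24, 4.04, 3.95 and 3.80.

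Compared with the other removals, however, cytokine levels were lower with N-Nme. Of the 14 genes 12 were DE and lower than the mean of N-Mac, N-Omt and N-Tri and none higher (median -0.53), where 20.6% of all genes tested were lower. Against N-Mac (15.7% of all genes lower) and N-Tri (9.01%) 13 were lower and none higher, against N-Omt (31%) 7 were lower and 4 higher, and 7 were lower than in each of the 3, where 2.85% of all genes tested were. IL1B was at 37.5, 41.6 and 31.5 CPM with N-Nme, 163, 165 and 150.3 CPM with N-Mac, 243, 235 and 231 CPM with N-Omt and 69.9, 67.1 and 77.5 CPM with N-Tri. The log2 fold change against the other removals was -1.92 (SE 0.06, adjusted p = 5.05e-21). IL1B was named by the rule that required no overlap of libraries, so that their separation is not further evidence. For IL6 the values were 37.6 CPM with N-Nme, 179.6 CPM with N-Mac, 104 CPM with N-Omt and 63.96 CPM with N-Tri. CXCL8, at 843 CPM with N-Nme, had 2309 CPM with N-Mac and 1277 CPM with N-Tri, but 708 CPM with N-Omt.

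The immediate early genes FOS and FOSB, whose products form the AP-1 factor, were among the 6 genes furthest below the other removals, and with IL1B and IL6 they made up 4 of these 6. FOS was at 12.6, 14.5 and 12.7 CPM with N-Nme, at 23.3, 31.8 and 22.5 CPM in untreated cells and at 115, 109.7 and 111 CPM with CKI. With N-Mac, N-Omt and N-Tri its means were 53.2, 88.9 and 37.4 CPM, so that N-Nme had the lowest level of the 6 groups. The libraries did not overlap, which the naming rule required with respect to the other removals. The N-Tri libraries differed among themselves in FOS, at 26.8, 26.2 and 59.3 CPM. The log2 fold change of FOS was -0.96 against untreated cells, -3.08 against CKI and -2.08 against the other removals (adjusted p = 4.4e-05, 2.14e-16 and 4.65e-12). DHRS3, a retinal reductase, was at 1.98 CPM with N-Nme, 1.65 CPM in untreated cells and between 4.58 and 12.9 CPM with the other removals. The antisense RNA IGFL2-AS1, for which the strand setting of the counting is not given in the sources used here, had a log2 fold change of -1.55. Over all genes, 479 were DE and higher than in each of the 3 other removals and 431 DE and lower than in each.

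The aryl hydrocarbon receptor (AhR) is a ligand-activated factor that switches on enzymes of xenobiotic metabolism. Its targets CYP1A1 and CYP1B1 were lower with N-Nme, and with the other removals, than with CKI. Beside targets, the list of AhR genes held AHR, the receptor gene itself, and ARNT. Of 7 tested genes of this list 6 were higher with N-Nme than in untreated cells (median 0.87), where 35.9% of all genes tested were. Against CKI 4 were lower and 2 higher (median -0.60), beside 35.7% and 35.8% of all genes tested. CYP1A1, the receptor's best known target, was at 0.370, 0.669 and 0.821 CPM in untreated cells, 3.50, 3.53 and 4.53 CPM with N-Nme and 73.8, 68.7 and 76.6 CPM with CKI. Its log2 fold change was 2.65 (SE 0.21, adjusted p = 1.39e-12) against untreated cells and -4.23 (SE 0.10, adjusted p = 1.64e-25) against CKI. With N-Mac, N-Omt and N-Tri the gene was at 10.04, 11.9 and 5.55 CPM, far below CKI as well. CYP1B1 was at 160.0 CPM in untreated cells, 370.0 CPM with N-Nme and 1117 CPM with CKI. N-Mac, N-Omt and N-Tri had it at 373, 304 and 470 CPM. By contrast TIPARP, another target, was at 154 CPM with N-Nme and 150.1 CPM with CKI. The log2 fold change between them was 0.04 (95% confidence interval -0.06 to 0.13). The other genes furthest below CKI by the naming rule were SLCO2B1, F2RL3, SPINK4, HTRA3 and RARRES2, with log2 fold changes between -5.14 and -4.36. SLCO2B1, an organic anion transporter, was at 11.5 CPM with CKI and at most at 0.399 CPM in a N-Nme library. With N-Mac, N-Omt and N-Tri it was at 0.379, 0.243 and 0.174 CPM. F2RL3, at 26.9 CPM with CKI, was at 0.72, 1.12 and 0.99 CPM with these mixtures, so that the difference from CKI was shared by the other removals in both genes.

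Promoters of 4 genes whose transcripts moved with N-Nme are shown, because each comes from a list with a known response element. They are the 250 bases before the start of transcription from RefSeq, in GRCh38.p14, read along the gene's strand, with the searched letters in capitals. CYP1A1 (chr15:74725529-74725778, minus strand) and TIPARP (chr3:156674340-156674589, plus strand) were searched for GCGTG, the core of the AhR element. MT1X (chr16:56682220-56682469, plus strand) was searched for TGCGCNC, the core of the metal response element, and HSPA5 (chr9:125241344-125241593, minus strand) for CCACG, the end of the ER stress element, all on both strands.
CYP1A1: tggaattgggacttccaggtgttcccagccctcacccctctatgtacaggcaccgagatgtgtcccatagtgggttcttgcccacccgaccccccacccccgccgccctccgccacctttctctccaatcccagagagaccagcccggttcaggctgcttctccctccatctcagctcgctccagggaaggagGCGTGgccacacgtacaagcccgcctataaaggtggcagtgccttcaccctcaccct
TIPARP: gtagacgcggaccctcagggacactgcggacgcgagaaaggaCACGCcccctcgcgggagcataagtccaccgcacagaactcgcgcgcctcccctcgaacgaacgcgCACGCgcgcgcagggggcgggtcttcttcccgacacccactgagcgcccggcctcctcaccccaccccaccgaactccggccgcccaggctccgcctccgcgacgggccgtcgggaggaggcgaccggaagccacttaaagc
MT1X: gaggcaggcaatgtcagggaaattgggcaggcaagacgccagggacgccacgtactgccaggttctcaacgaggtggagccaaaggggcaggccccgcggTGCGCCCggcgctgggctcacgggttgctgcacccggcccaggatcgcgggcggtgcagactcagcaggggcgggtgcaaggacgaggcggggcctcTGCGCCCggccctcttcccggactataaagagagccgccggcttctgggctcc
HSPA5: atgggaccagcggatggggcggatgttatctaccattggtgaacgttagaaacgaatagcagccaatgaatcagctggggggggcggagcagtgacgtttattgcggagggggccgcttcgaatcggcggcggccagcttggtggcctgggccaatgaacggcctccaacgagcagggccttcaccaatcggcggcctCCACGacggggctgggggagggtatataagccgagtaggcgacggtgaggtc
The match in CYP1A1 begins 57 bases and that in HSPA5 52 bases before the start, and TIPARP and MT1X hold 2 matches each. These letters are short and common. GCGTG or its reverse complement was in 32.2% of the 35116 promoters of the table, CCACG in 33.5% and TGCGCNC in 16.8%. Of the matched list members, 4 of 7 AhR genes, 15 of 18 ER chaperone genes and 3 of 5 metallothionein and zinc genes held their letters. MT1X, a metallothionein whose near-identical relatives may share its reads, went from 49.7, 47.2 and 60.5 CPM to 180.3, 152 and 167 CPM. Of the 7 tested genes of its list 3 were higher and 3 lower, beside 35.9% and 35.4% of all genes tested.

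Antioxidant genes driven by NRF2 were higher than in untreated cells in 16 of 21 cases and lower in 4 (median 0.55). The shares of all genes tested were 35.9% and 35.4%. SLC7A11, the cystine transporter, went from 83.6, 58.8 and 126 CPM to 389.7, 438 and 444 CPM and SRXN1 (sulfiredoxin) from 118, 105 and 141 CPM to 367, 335 and 323 CPM, while AKR1B10 rose by 2.51 at low levels and the value for NQO1 was 0.09 (95% confidence interval -0.03 to 0.21). Against CKI 11 of the 21 were lower with N-Nme and 6 higher (median -0.54), beside 35.7% and 35.8% of all genes tested. AKR1B10 was at 15.2 CPM with CKI, 1.96 CPM with N-Nme and between 1.53 and 3.17 CPM with the other removals. Against the mean of the other removals 4 of the 21 were higher and 4 lower (median 0.03), where 23.6% and 20.6% of all genes tested were.

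Genes of cholesterol synthesis and uptake went the other way. With N-Nme 13 of 18 were lower than in untreated cells and 2 higher (median -0.65). MVK, mevalonate kinase, was at 57.6, 49.8 and 56.5 CPM in untreated and 15.2, 14.2 and 12.6 CPM in N-Nme libraries, a log2 fold change of -1.97 (SE 0.071, adjusted p = 2.29e-21). LSS, lanosterol synthase, went from 440.4, 401 and 461 CPM to 182, 175 and 186 CPM, and in both genes the groups were far apart. Against CKI 17 of 18 were lower (35.7% of all genes, median -1.21), CKI having 16 of the 18 above untreated cells (32.3% of all genes). Against the mean of the 3 other removals 17 were lower by a smaller margin (median -0.28), where 20.6% of all genes tested were. Against N-Omt 16 were lower and 1 higher (31% of all genes lower). Against N-Mac (15.7%) 10 were lower and against N-Tri (9.01%) 8. In all, 4 were lower than in each of the 3, where 2.85% of all genes tested were. Among 17 LXR and PPAR targets 8 were higher and 7 lower than in untreated cells, beside 35.9% and 35.4% of all genes tested. The largest changes were those of PLIN2, which coats lipid droplets, with 2.03, and SREBF1 with -1.90.

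The study asked about migration, and genes of the actin cytoskeleton and of focal adhesions were lower with N-Nme in 19 of 22 cases and higher in none (median -0.66). CAV1 (caveolin 1) went from 749, 821 and 718 CPM to 199, 188 and 185 CPM. The actin gene ACTG1, whose reads may be shared with ACTB and pseudogenes, went from 3029.8, 3139 and 2737 CPM to 809, 760.0 and 769 CPM, and the genes of the crosslinker ACTN4 and of the myosin light chain MYL9 changed by -1.55 and -1.52. Against CKI 17 were lower and 2 higher (median -0.40), where 35.7% of all genes tested were lower and 35.8% higher. Against the mean of the other removals 7 were lower and 4 higher (median -0.02), beside 20.6% and 23.6% of all genes tested. Integrin subunits were split, with 6 of 13 higher and 6 lower than in untreated cells, beside 35.9% and 35.4% of all genes tested. ITGB5 went from 232, 252 and 217 CPM to 66.4, 63.4 and 61.4 CPM and ITGB3 and ITGA2 rose by 1.69 and 1.14, while ITGB8, ITGA10 and ITGA11 were low, at no more than 7.58 CPM in an untreated library. Of 12 targets of YAP and TEAD 8 were lower and 2 higher, and CTGF (CCN2) went from 269, 263 and 267 CPM to 67.2, 66.3 and 69.6 CPM.

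Matrix genes moved both ways, 4 of 16 higher and 8 lower (median -0.41), where 35.9% of all genes tested were higher and 35.4% lower. Beside MMP1, MMP3 (stromelysin 1) rose from at most 0.346 CPM in an untreated library to 3.19, 4.10 and 3.69 CPM. CEMIP, which degrades hyaluronan, changed by -2.88, from 187, 204 and 184 CPM to 27.1, 27.03 and 24.2 CPM, and TIMP3, an inhibitor of matrix proteases, by -2.63. Of 16 genes of TGF-β signaling 6 were higher and 7 lower (median -0.06), near the shares of all genes, among them ID1 with -2.61 and TGFB2 with -1.59. Against the mean of the other removals 10 were lower and none higher (median -0.37), where 20.6% of all genes tested were lower. Against N-Omt 12 were lower and 1 higher (31% of all genes lower). Against N-Mac (15.7%) 5 were lower and 1 higher, and against N-Tri (9.01%) 5 were lower. Only 2 were lower than in each, where 2.85% of all genes tested were. Interferon-stimulated genes were lower in 14 of 15 cases and higher in none (median -1.01). ISG15 went from 171, 186 and 149 CPM to 50.5, 49.4 and 55.97 CPM and OAS3 from 45.5, 49.1 and 39.5 CPM to 10.8, 9.68 and 8.98 CPM. Of 22 genes of the BCL2 family and death receptors 11 were higher and 7 lower (median 0.17), beside 35.9% and 35.4% of all genes tested. BIRC3 and XIAP, inhibitors of caspases, were at 0.88 and 0.78, and BID and BCL2L1 (BCL-XL) at -0.80 and -0.73. Among 21 genes of glycolysis and the hypoxia response 7 were higher and 13 lower (median -0.27), with NDRG1, induced by hypoxia, at 1.32, and PKM, ENO1 and GAPDH, which have pseudogenes that may share their reads, at -1.35, -1.05 and -0.88.

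Of the 14 core genes that the study linked to migration, 13 had enough counts for a test. With N-Nme 8 were lower and 4 higher (median -0.21), where 35.4% of all genes tested were lower and 35.9% higher. The study picked them from DE genes of these cells under CKI, so their calls are not independent evidence. CCND1 and AKT1 changed by -1.60 and -0.92, AKT1 going from 283, 293 and 281 CPM to 155, 144 and 155 CPM. CTNNB1 (β-catenin) and AKT2 changed by -0.62 and -0.66, and RB1 and CDK4 by -0.21 and -0.19. CDH1 was called lower at no more than 1.03 CPM in any library of both groups (-1.01, adjusted p = 0.0225). APC, JAK2 and PIK3CA were higher and differed by no more than 0.30. The calls of CDH1, JAK2, CDK4, PIK3CA and RB1 were each lost under at least one other setting. ESR1, the gene that could not be tested, had between 2 and 7 counts in these 6 libraries.

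Subunits of the nicotinic receptor, to which Nme is known to bind, were mostly not expressed at a level that could be tested. Of 16 subunit genes 4 could be tested, and the other 12 had at most 9 counts in any library of batch 2. CHRNB1, the β subunit of the muscle receptor, was at 53.99, 49.1 and 54.9 CPM in untreated cells, 66.1, 60.9 and 58.9 CPM with N-Nme and 86.7, 86.5 and 86.2 CPM with CKI, with a log2 fold change of 0.23 against untreated cells and -0.48 against CKI (adjusted p = 0.000636 and 4.72e-09). It was higher with N-Nme than with N-Omt and N-Tri (log2 fold changes 0.65 and 0.23, adjusted p = 5.29e-11 and 0.00527). Against N-Mac it was not DE (0.09, adjusted p = 0.273). CHRNA5 was lower with N-Nme, at 3.10, 2.53 and 2.15 CPM against 6.74, 6.02 and 6.09 CPM in untreated cells and 8.59, 8.05 and 8.53 CPM with CKI, a log2 fold change of -1.28 (SE 0.16, adjusted p = 1.32e-08) against untreated cells. The other removals N-Mac, N-Omt and N-Tri had CHRNA5 at 3.59, 2.36 and 3.29 CPM. N-Nme was lower than N-Mac (log2 fold change -0.48, adjusted p = 0.0365) but not DE against N-Omt, N-Tri or the mean of the 3 (log2 fold change -0.24 against the mean, 95% confidence interval -0.54 to 0.06). CHRNA7, which has a partial copy in the genome that may share its reads, and CHRNA10 were at most at 1.73 CPM in these libraries and not DE against untreated cells, with log2 fold changes of -0.42 (95% confidence interval -0.92 to 0.08) and -0.92 (95% confidence interval -1.82 to -0.02).

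The response to N-Nme was set beside that to whole CKI in batch 1, measured against its own untreated cells. In batch 1 at 48 h 9037 of 14448 genes (62.5%) were DE with CKI. Of 14289 genes tested in both comparisons, 6969 were DE in both, which is 66.8% of the 10437 genes DE with N-Nme and 77.8% of the 8955 DE with CKI. These shares were little above those of all genes tested in each comparison, 62.5% DE with CKI and 71.3% DE with N-Nme. Among the 6969 genes the direction was the same for 5385 and opposite for 1584. With CKI in batch 1 all 23 mitosis genes and 21 of the 24 replication genes were lower (31% of all genes tested), and 1 replication gene, ORC1, was higher (31.6%), by 0.20 on the log2 scale. E2F1, lower with N-Nme, was also higher with CKI in batch 1, by 0.19. PLK1 changed by -1.85 and MKI67 by -1.11 with CKI in batch 1, and MMP1 and IL1A rose by 4.42 and 4.07. HSPA5 fell by 0.75 on the log2 scale with CKI in batch 1, opposite to its rise with N-Nme, CXCL8 changed by -0.22, and CYP1A1 rose by 5.69. The ER chaperone list as a whole was less even there than with CKI in batch 2. Of its 19 genes 9 were lower, 3 higher and 7 not DE with CKI in batch 1 (median -0.11). Batch and mixture differ together in this comparison, and no test was made between the 2 fold changes.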

How the data were processed

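The number of reads that the authors counted on each of 27978 genes was deposited as raw counts, without normalization. The submitters' processing notes name FastQC 0.11.4, Trim Galore 0.3.7, STAR 2.5.3a, Subread 1.5.2 with featureCounts, and build hg19. The libraries are labelled strand-specific, and the strand option of the counting is not given in the sources used here. Column names matched the labels for all 54 libraries, and the labels call the 3 replicates of a group biological.

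From the deposited counts, genes with too few counts were removed with filterByExpr (edgeR 4.0.16 in R 4.3.3), libraries were scaled by TMM, and a quasi-likelihood model was fitted to the 6 groups of batch 2 at 48 h (18 libraries, 15115 genes), with Benjamini-Hochberg adjustment over all genes. N-Nme was tested against untreated cells, CKI, each other removal and the mean of these 3. CKI in batch 1 was fitted on its own 6 libraries. The procedure was tested on simulated data. DESeq2 1.42.0, other scalings and filters, a replicate block and leaving out each library were tried as alternatives. Named genes were those with the largest log2 fold changes among DE genes without overlap between groups (12 per direction against untreated cells at 10 CPM or more, otherwise 6 per direction at 5 CPM or more), up to 4 DE genes of each list, all core genes and all nicotinic subunits, except that some genes this rule names are not reported here. Members, lists and comparisons were chosen with earlier results of these data known. Promoters came from RefSeq (GRCh38.p14), whose coordinates were not used with the counts.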

Additional observations from a re-analysis of the deposited data

How the results depend on the processing

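The numbers of DE genes kept their size within 1.5 times under each alternative except those named here. With a 2-fold difference required, they fell to 2460 for N-Nme against untreated cells, 2412 against CKI, 330 against the other removals and 1574 for CKI in batch 1, because many differences were small. Against the mean of N-Mac and N-Tri only, chosen after seeing the data because N-Omt stood apart, the number was 3056 in place of 6677, since N-Omt is left out. Leaving out each library in turn gave 10205 to 10552 DE genes against untreated cells, 10257 to 10618 against CKI, 5579 to 6728 against the other removals and 8037 to 9139 for CKI in batch 1.

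Of 1456 recomputed counts of list members called higher or lower against untreated cells or CKI, 1342 stayed within 1.5 times, 101 were smaller, 27 of them under settings other than the 2-fold requirement, and 13 were larger. Against untreated cells, higher integrin subunits fell from 6 to 3 with only the groups compared in the fit. Lower heat shock chaperones fell from 5 to 3 with that fit, with library sizes alone or without N-Nme replicate 2. Higher core genes fell from 4 to 1 without N-Nme replicate 3 and to 2 without untreated replicate 1 or 3, among other settings, and lower fibroblast markers from 4 to 2 without N-Nme replicate 3 or untreated replicate 2 or with library sizes alone. No secreted cytokine gene was called lower, but 1 was under 5 settings, among them leaving out N-Nme replicate 2 or untreated replicate 3. The other such changes were in counts of 2 or fewer. Among named genes, the calls against untreated cells of JAK2, CDH1, CDK4, PIK3CA, RB1, FOSB, DCN and LUM, and those against CKI of CHRNA7, BCL2L1, MT1E, ITGB8 and ABCG1, were each lost under at least one alternative besides the 2-fold requirement.

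Replicate numbers are shared between groups in the labels, but the deviations of same-numbered libraries from their group means had correlations between -0.03 and 0.09, so that the numbers were not taken to pair the libraries. With a replicate block the numbers of DE genes were 10817, 10850, 6789 and 8316. The filter on low counts left 12 of the 16 nicotinic subunits, with at most 9 counts in any library of batch 2, without a test.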
